A study of Homo sapiens with 12 samples.

Results

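The snoRNA host genes described here were the 17 genes of the tables whose symbol is SNHG followed by a number, together with GAS5, ZFAS1 and EPB41L4A-AS1. They were 17 of the 60106 genes measured. The series holds 12 RNA-seq libraries from 2 established human prostate cancer lines, with 3 replicates in each of 4 groups. PC3, a line from a bone metastasis, received 20 nM of a non-targeting siRNA (NSI) or of an siRNA against FOXA1 (siFOXA1). VCaP, a line from a vertebral metastasis, received 40 nM of either siRNA. RNA was extracted from all groups at 72 hours. PC3 grew in RPMI-1640 and its polyA RNA was sequenced from a stranded mRNA kit. VCaP grew in DMEM and was sequenced from a total RNA kit. Line, siRNA dose, medium and kit therefore cannot be told apart. The labels do not say whether replicates came from separate cultures, so p-values measure only the spread between these samples.

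Small nucleolar RNAs (snoRNAs) guide the chemical modification of ribosomal RNA. Box C/D snoRNAs direct methylation of the ribose and box H/ACA snoRNAs direct pseudouridylation, each inside a particle of core proteins. Most human snoRNAs lie in introns of a host gene and are cut out of the spliced intron, while the joined exons of hosts such as GAS5 and SNHG1 encode no known conserved protein and are a classic substrate of nonsense-mediated decay. Many hosts begin transcription at a C followed by a run of pyrimidines, the 5′ terminal oligopyrimidine (TOP) start that they share with ribosomal protein genes. FOXA1 is a forkhead pioneer factor that opens chromatin for other transcription factors in prostate cells.

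The first bases of the hosts are shown because a TOP-type start is a feature known for this class, and some of the hosts carry one. RefSeq promoters of GRCh38.p14 were matched by symbol for 14 of the 17 genes, and SNHG6, SNHG9 and SNHG15 had no entry. Each window below has 20 bases before the annotated start and 20 bases from it, on the gene's strand, and capitals mark a C at the start followed by at least 4 pyrimidines.
SNHG5 (chr6:85678714-85678753, minus strand): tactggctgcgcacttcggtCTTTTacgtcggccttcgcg
ZFAS1 (chr20:49278622-49278661, plus strand): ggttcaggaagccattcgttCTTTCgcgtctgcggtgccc
SNHG4 (chr5:139274081-139274120, plus strand): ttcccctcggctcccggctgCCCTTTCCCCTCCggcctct
SNHG12 (chr1:28581854-28581893, minus strand): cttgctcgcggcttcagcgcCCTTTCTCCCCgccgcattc
SNHG16 (chr17:76557744-76557783, plus strand): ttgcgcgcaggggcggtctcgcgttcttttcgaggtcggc
GAS5 (chr1:173869026-173869065, minus strand): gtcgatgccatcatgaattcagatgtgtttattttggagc

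The tract stood exactly at the annotated start in these first 4 windows, 4 of 14 hosts (28.6%), against 1429 of 35116 RefSeq promoters (4.07%). Among promoters of protein-coding snoRNA hosts it was present in 19 of 46 (41.3%). A start annotated a few bases away would be missed. The window of SNHG16 holds a pyrimidine run off the start, and the window of GAS5 has no C followed by 4 pyrimidines. SNHG5 was lower after siFOXA1 in both lines, ZFAS1 passed the test in VCaP, SNHG4 was higher in PC3, and SNHG12 passed in neither line. The forkhead letters TGTTTAC, searched on both strands from 250 bases before to 50 bases after the start, occurred in 0 of the 14 promoters and in 3.42% of all promoters. A match or its absence describes the letters of this window.

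FOXA1 itself was the check of the labels. Levels are given as CPM, counts per 1000000 counts of a library after scaling for its composition. FOXA1 stood at 296, 247 and 261 CPM in the NSI libraries of PC3 and at 165, 184 and 164 CPM in the siFOXA1 libraries. The NSI libraries of VCaP held 458, 468 and 544 CPM, and the siFOXA1 libraries 85.2, 73.6 and 83.1 CPM. The log2 fold change was -0.65 ± 0.10 (SE, n = 3 against 3, edgeR adjusted p = 0.00222) in PC3 and -2.60 ± 0.09 (adjusted p = 1.84e-07) in VCaP, and the groups did not overlap in either line. With 20 arrangements an exact two-sided permutation test cannot go below p = 0.1, the value it gave in PC3 and in VCaP. FOXA1 fell further in VCaP than in PC3, by a difference of -1.93 on the log2 scale (adjusted p = 3.12e-07).

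Libraries held 123140099 to 188226483 counts in PC3 and 48187047 to 59839211 in VCaP. VIM, the mesenchymal filament gene used as a marker of PC3, measured 719 to 883 CPM in PC3 and 0.140 to 0.835 CPM in VCaP. Of 4 markers of other cell types, 3 were found in the tables (PTPRC, CD3E and CD14). Their summed level was 0.210 to 0.231 CPM in NSI and 0.418 to 0.461 CPM in siFOXA1 of PC3, and 0.730 to 0.905 CPM and 2.29 to 3.00 CPM in VCaP. CD14 was called higher after siFOXA1 in both lines, at 0.159 to 0.215 CPM and 0.321 to 0.339 CPM in PC3 and 0.625 to 0.770 CPM and 2.23 to 2.98 CPM in VCaP. PTPRC, the pan-leukocyte marker, was called higher in PC3 at a top level of 0.121 CPM. It held only 1 to 8 counts per NSI library and 12 to 20 per siFOXA1 library there. PTPRC met the filter on low counts through the siFOXA1 libraries, so this call is not read as support for a rise. In VCaP PTPRC did not pass the filter for a test, at 0.104 to 0.120 CPM with NSI and 0 to 0.0398 CPM with siFOXA1. Its difference between the lines was called (edgeR adjusted p = 0.00297). That difference rests on 6 counts per NSI library and 0 to 2 per siFOXA1 library of VCaP, so it is not read as a result. CD3E stayed at or below 0.0199 CPM in all libraries. The mitochondrial share of counts was 13.1% to 15.7% in PC3, with overlapping groups, and in VCaP it was 3.02% to 3.29% in NSI and 4.04% to 4.69% in siFOXA1. The part of the mitochondrial share and of these markers in the results was not tested.

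Nearly every host that changed after FOXA1 knockdown was lower. All 17 genes passed the filter on low counts in both lines. In PC3, 6 of 17 (35.3%) were called lower at an adjusted p under 0.05, against 12.1% of the 26435 genes tested, and 1 of 17 (SNHG4) was called higher, against 15.0% of all genes. In VCaP, 8 of 17 (47.1%) were called lower, against 23.3% of the 22925 genes tested, and 0 were called higher, against 22.5%. DESeq2 called 11 lower and 0 higher in VCaP, against 21.5% and 19.6% of all genes. With edgeR, 11 hosts had an unadjusted p under 0.05 and a lower level in VCaP, against 26.5% of all genes, and 0 a higher one, against 26.4%. The median log2 fold change of the hosts was -0.37 in PC3 and -0.32 in VCaP, beside 0.02 over all genes tested in each line. The called hosts were exactly those whose 3 siFOXA1 libraries lay wholly on 1 side of the 3 NSI libraries. That held downward for 20.5% of all genes in PC3 and 28.0% in VCaP, and upward for 23.9% and 27.9%.

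The PC3 count leaned on single libraries. Without siFOXA1 replicate 1 of PC3 it was 0 of 17, against 5.63% of all genes, with an adjusted p of 0.057 or more for each of the 6, while their fold changes ran from -0.62 to -0.41 in place of -0.68 to -0.45. Without siFOXA1 replicate 2 of PC3 it was 9, against 3535 of 27242 genes tested, and without NSI replicate 3 it was 4, against 7.03%. Same-numbered PC3 libraries deviated together, and the main fit left this pairing out. With the replicate number as a block, 9 hosts were called lower in PC3, against 21.0% of all genes, the further 3 being ZFAS1, EPB41L4A-AS1 and SNHG7.

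Summed over the 17 hosts, the libraries measured 638, 789 and 674 CPM with NSI and 498, 606 and 472 CPM with siFOXA1 in PC3. In VCaP the sums were 1516, 1453 and 1600.0 CPM with NSI and 1049, 1086 and 1122 CPM with siFOXA1. The siFOXA1 sums lay below every NSI sum in both lines. In bulk samples, fewer cells making a transcript and less of it per cell cannot be told apart. SNHG14 alone gave much of the VCaP sum, and without it the sums were 799, 822 and 1052 CPM with NSI and 549, 580 and 675 CPM with siFOXA1.

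Between genes, levels are compared per kilobase of exon. In PC3 NSI libraries the order began with SNHG1 at 76.3 ± 8.18 CPM per kilobase (SD, n = 3), followed by SNHG8 at 54.6 ± 9.07 and ZFAS1 at 54.0 ± 4.90, which did not differ beyond their spread. SNHG16 at 34.8 ± 7.82 and GAS5 at 30.9 ± 3.41 came next and were likewise within their spread. In VCaP the order began with GAS5 at 114 ± 25.6, SNHG8 at 89.3 ± 16.7, SNHG6 at 73.9 ± 8.81 and SNHG16 at 59.7 ± 10.0 CPM per kilobase, each within the spread of its neighbour. SNHG10 and SNHG9 were at the low end in VCaP (2.51 ± 0.24 and 2.63 ± 0.46), and SNHG14 and SNHG10 in PC3 (1.54 ± 0.21 and 2.01 ± 0.40). SNHG14 was last in PC3 and eighth in VCaP, at 17.7 ± 2.35 CPM per kilobase.

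SNHG1, SNHG5, SNHG14, SNHG15 and SNHG16, 5 of the 17 hosts (29.4%), were called lower in both lines. Over all 19261 genes tested in both lines, 5.72% were. SNHG16, a host of box C/D snoRNAs of the SNORD1 family, lies on chromosome 17 (74553851 to 74561430, GRCh37, plus strand, 3 exon blocks). SNHG16 measured 108, 159 and 111 CPM with NSI and 77.1, 86.6 and 80.9 CPM with siFOXA1 in PC3. SNHG16 in VCaP stood at 190, 201 and 257 CPM with NSI and at 75.0, 79.5 and 86.3 CPM with siFOXA1. All siFOXA1 libraries were below all NSI libraries in both lines, and the VCaP mean after siFOXA1 was 37.2% of the NSI mean, against 64.7% in PC3.

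The log2 fold change of SNHG16 was -0.63 ± 0.15 (SE, adjusted p = 0.0151) in PC3 and -1.43 ± 0.11 (adjusted p = 1.12e-05) in VCaP. The difference, VCaP minus PC3, was -0.78 ± 0.19 (adjusted p = 0.00873). It was the 1 difference called among the 17 hosts, where 11.0% of the 30425 genes tested were called more negative in VCaP and 11.3% more positive (12.8% were more negative with library size alone, which split the calls 2643 positive to 3880 negative in place of 3427 to 3333). It was called in all 19 alternative settings. The 2 lines counted this locus differently. An RNA on the opposite strand, RP11-666A8.13, overlaps 45.3% of the exonic bases of SNHG16, and PC3 was counted without strand. RP11-666A8.13 measured 72.2 ± 26.6 CPM in NSI and 48.7 ± 2.97 CPM in siFOXA1 of PC3, and 0.141 ± 0.062 and 0.235 ± 0.006 CPM in the strand-aware VCaP counts, so part of the PC3 fragments of either gene cannot be assigned to a strand.

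SNHG1, the host of a series of box C/D snoRNAs in its introns, lies on chromosome 11 (62619460 to 62623386, minus strand, 10 exon blocks). SNHG1 measured 116, 136 and 111 CPM with NSI and 78.4, 94.9 and 69.8 CPM with siFOXA1 in PC3. SNHG1 in VCaP stood at 46.3, 43.0 and 53.2 CPM with NSI and at 34.0, 33.9 and 37.3 CPM with siFOXA1. Groups did not overlap in either line, and the log2 fold changes of -0.58 ± 0.13 (adjusted p = 0.0126) and -0.44 ± 0.08 (adjusted p = 0.00216) did not pass the test of a difference between the lines (0.16 ± 0.16).

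SNHG5, on chromosome 6 (86370668 to 86388454, minus strand), hosts box C/D snoRNAs and carries the short CTTTT start printed above. SNHG5 measured 18.4, 22.7 and 20.1 CPM with NSI and 14.0, 17.1 and 13.6 CPM with siFOXA1 in PC3. SNHG5 in VCaP stood at 26.5, 25.1 and 31.9 CPM with NSI and at 17.8, 18.7 and 23.6 CPM with siFOXA1. The highest siFOXA1 library stayed below the lowest NSI library in both lines, with log2 fold changes of -0.45 ± 0.12 (adjusted p = 0.0264) and -0.47 ± 0.12 (adjusted p = 0.0111). The PC3 call of SNHG5 was lost without NSI replicate 3, siFOXA1 replicate 1 or siFOXA1 replicate 3 (adjusted p = 0.0728, 0.110 and 0.0663).

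SNHG15, on chromosome 7 (45022622 to 45026560, minus strand, 2 exon blocks), measured 31.6, 43.1 and 35.1 CPM with NSI and 20.8, 27.6 and 20.1 CPM with siFOXA1 in PC3. SNHG15 in VCaP stood at 35.6, 36.0 and 40.5 CPM with NSI and at 28.8, 33.3 and 31.5 CPM with siFOXA1. The groups were apart in both lines, by a wider margin in PC3. Its log2 fold change was -0.68 ± 0.16 (adjusted p = 0.0131) in PC3 and -0.26 ± 0.08 (adjusted p = 0.0195) in VCaP, and the difference of 0.44 ± 0.17 missed the threshold (adjusted p = 0.086). The difference passed with the replicate block (adjusted p = 0.00423), without NSI replicate 1 of PC3 and without siFOXA1 replicate 2 of PC3. The VCaP call was lost without NSI replicate 3 (adjusted p = 0.0569), without siFOXA1 replicate 1 (adjusted p = 0.0722) and in the fit over all 12 libraries (adjusted p = 0.204).

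SNHG14 is the long, imprinted transcript of the Prader-Willi and Angelman region, spanning 439906 bases of chromosome 15 (25224704 to 25664609, plus strand, 119 exon blocks) and running antisense into UBE3A. SNHG14 measured 61.9, 46.7 and 56.0 CPM with NSI and 40.1, 37.5 and 42.7 CPM with siFOXA1 in PC3. SNHG14 in VCaP stood at 717, 631 and 549 CPM with NSI and at 500.3, 506 and 447 CPM with siFOXA1, the most counts of any host. All siFOXA1 values were the lower ones in both lines, and the log2 fold changes were -0.45 ± 0.12 (adjusted p = 0.0209) and -0.38 ± 0.10 (adjusted p = 0.0135). UBE3A, whose exons cover 0.554% of those of SNHG14, had log2 fold changes of -0.11 in PC3 and -0.05 in VCaP, with neither passing the test. The PC3 call of SNHG14 was lost without NSI replicate 1, NSI replicate 3 or siFOXA1 replicate 1 (adjusted p = 0.0637, 0.0718 and 0.0769).

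GAS5, the growth arrest host gene whose transcript can bind the glucocorticoid receptor, lies on chromosome 1 (173833038 to 173838020, minus strand, 13 exon blocks). GAS5 measured 46.9, 56.3 and 46.6 CPM with NSI and 32.2, 39.0 and 32.2 CPM with siFOXA1 in PC3. GAS5 in VCaP stood at 157, 164 and 232 CPM with NSI and at 113, 127 and 167 CPM with siFOXA1. The groups were apart in PC3 and overlapped in VCaP, where replicate 3 was the highest of both groups. The log2 fold change was -0.53 ± 0.12 (adjusted p = 0.0107) in PC3 and -0.44 ± 0.17 (adjusted p = 0.0614) in VCaP. Between the lines the fold changes of GAS5 differed by 0.11 ± 0.22 (adjusted p = 0.818). The VCaP value passed the threshold with DESeq2 (adjusted p = 0.0125), with library size alone (adjusted p = 0.0297), with no filter on low counts (adjusted p = 0.001), without NSI replicate 1 (adjusted p = 0.0386) and without siFOXA1 replicate 3 (adjusted p = 0.0108). With the replicate block the adjusted p of GAS5 in VCaP was 0.000291. GAS5-AS1 lies opposite 2.60% of the exonic bases of GAS5, and strand was ignored in PC3. GAS5-AS1 measured 2.49 CPM in NSI of PC3 and was called lower there (-1.455, edgeR adjusted p = 0.00145). It did not pass in VCaP (0.16, adjusted p = 0.667).

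ZFAS1, which starts head to head with ZNFX1 and hosts the SNORD12 snoRNAs, lies on chromosome 20 (47894715 to 47912275, plus strand, 7 exon blocks). ZFAS1 measured 107, 127 and 126 CPM with NSI and 93.4, 112 and 81.8 CPM with siFOXA1 in PC3. ZFAS1 in VCaP stood at 54.4, 57.5 and 70.5 CPM with NSI and at 38.8, 40.8 and 52.5 CPM with siFOXA1. The groups overlapped in PC3 (-0.33 ± 0.13, adjusted p = 0.0882, or 0.0116 with the replicate block) and were apart in VCaP (-0.47 ± 0.13, adjusted p = 0.0146). The PC3 value of ZFAS1 also passed with DESeq2, with no filter and without siFOXA1 replicate 2 (adjusted p = 0.0424, 0.0356 and 0.0177). Without siFOXA1 replicate 1 or 2 the VCaP value missed the threshold, at 0.0503 and 0.0546. ZNFX1, whose exons lie opposite 11.2% of those of ZFAS1, rose in PC3 by 1.58 on the log2 scale, where strand was ignored.

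SNHG3, on chromosome 1 (28832492 to 28837404, plus strand, 3 exon blocks), is the host of the U17 snoRNAs SNORA73A and SNORA73B. SNHG3 measured 22.6, 28.6 and 28.4 CPM with NSI and 19.2, 29.4 and 25.6 CPM with siFOXA1 in PC3. SNHG3 in VCaP stood at 55.9, 57.5 and 71.6 CPM with NSI and at 41.7, 44.4 and 43.8 CPM with siFOXA1. PC3 groups overlapped (-0.10 ± 0.16, adjusted p = 0.67) and VCaP groups were apart (-0.51 ± 0.09, adjusted p = 0.00158), while the difference of -0.39 ± 0.19 missed the threshold (adjusted p = 0.182). RCC1, which shares 9.72% of the exonic bases of SNHG3 on the same strand, was lower in PC3 by -0.66 and in VCaP by -0.39.

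SNHG6, on chromosome 8 (67833919 to 67838633, minus strand, 5 exon blocks), hosts a box C/D snoRNA. SNHG6 measured 14.3, 22.0 and 15.9 CPM with NSI and 14.9, 18.5 and 11.3 CPM with siFOXA1 in PC3. SNHG6 in VCaP stood at 63.5, 71.5 and 80.7 CPM with NSI and at 53.6, 48.6 and 55.1 CPM with siFOXA1. The PC3 groups overlapped (-0.23 ± 0.21, adjusted p = 0.443) and the VCaP groups were apart (-0.46 ± 0.09, adjusted p = 0.0027). MCMDC2 lies opposite 37.5% of its exonic bases, and strand was ignored in PC3. MCMDC2 itself was called lower in PC3 (-0.66, adjusted p = 0.0102) and not in VCaP (0.24, adjusted p = 0.229). The PC3 values of SNHG6 are therefore uncertain. The VCaP call of SNHG6 was lost in the fit over all 12 libraries (adjusted p = 0.0652). For SNHG6, VCaP minus PC3 gave -0.21 ± 0.23.

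EPB41L4A-AS1, the host of SNORA13, lies on chromosome 5 (111496223 to 111499973, plus strand, 3 exon blocks) opposite EPB41L4A, which overlaps 55.9% of its exonic bases. EPB41L4A-AS1 measured 30.4, 36.7 and 33.0 CPM with NSI and 26.1, 32.2 and 19.1 CPM with siFOXA1 in PC3. EPB41L4A-AS1 in VCaP stood at 17.1, 19.2 and 21.7 CPM with NSI and at 14.5, 14.3 and 18.2 CPM with siFOXA1. Groups overlapped in both lines and neither log2 fold change passed, at -0.37 ± 0.17 (adjusted p = 0.147, or 0.0142 with the replicate block) in PC3 and -0.30 ± 0.12 (adjusted p = 0.0599) in VCaP. The VCaP value passed with DESeq2 (adjusted p = 0.0396), with library size alone (adjusted p = 0.0295), with no filter (adjusted p = 0.0135), without NSI replicate 1 (adjusted p = 0.0277) and without siFOXA1 replicate 3 (adjusted p = 0.00965). With the replicate block it passed as well (adjusted p = 0.00576). The PC3 value of EPB41L4A-AS1 passed with all genes kept in the fit (adjusted p = 0.0431) and without siFOXA1 replicate 2 (adjusted p = 0.0209). EPB41L4A itself was low in PC3, at 4.37 ± 0.25 CPM in NSI.

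SNHG4 was the 1 host called higher and is described for that reason, after its values were seen. It hosts SNORA74A, lies on chromosome 5 (138609791 to 138619166, plus strand) and has the longest pyrimidine start printed above, 13 bases. SNHG4 measured 7.04, 5.84 and 8.03 CPM with NSI and 8.85, 10.7 and 10.2 CPM with siFOXA1 in PC3, with the groups apart. SNHG4 in VCaP stood at 22.9, 24.1 and 26.8 CPM with NSI and at 23.8, 25.1 and 26.1 CPM with siFOXA1, fully overlapping. The log2 fold change was 0.51 ± 0.14 (adjusted p = 0.0272) in PC3 and 0.02 ± 0.07 (adjusted p = 0.812) in VCaP, and the difference of -0.46 ± 0.17 missed the threshold (adjusted p = 0.0628). The difference of SNHG4 passed in 6 of 19 alternatives, with DESeq2 size factors, library size alone, DESeq2, the replicate block, and without NSI replicate 3 or siFOXA1 replicate 1 of PC3 (adjusted p = 0.0431, 0.0219, 0.0286, 0.0234, 0.0104 and 0.0379). The PC3 call was lost without NSI replicate 1, siFOXA1 replicate 2 or siFOXA1 replicate 3 (adjusted p = 0.0654, 0.0905 and 0.103). CTB-43P18.3, which shares 12.1% of its exonic bases on the same strand, was lower in PC3 by -0.27.

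The remaining 6 hosts passed the test in neither line. SNHG7 was called lower in PC3 with the replicate block (adjusted p = 0.00155), with all genes kept in the fit (adjusted p = 0.0499) and when siFOXA1 replicate 2 was left out (adjusted p = 0.0304), and in VCaP without NSI replicate 2 (adjusted p = 0.0492). SNHG7 and SNHG8 were lower by point estimate in both, at -0.37 ± 0.18 and -0.17 ± 0.20 in PC3 and -0.21 ± 0.13 and -0.32 ± 0.14 in VCaP. SNHG9, the host with the fewest counts (61 to 99 per NSI library in VCaP), had -0.42 ± 0.31 and -0.16 ± 0.17. SNHG10, SNHG11 and SNHG12 had 0.29 ± 0.20, 0.13 ± 0.17 and 0.06 ± 0.19 in PC3 and 0.03 ± 0.12, -0.11 ± 0.09 and -0.05 ± 0.14 in VCaP. GLRX5 lies opposite 13.6% of the exonic bases of SNHG10, and FAM69B opposite 25.2% of those of SNHG7. Strand was ignored in PC3, where GLRX5 measured 53.2 CPM and SNHG10 3.08 CPM in NSI, so these PC3 values are uncertain. GLRX5 itself was called lower in PC3 (-0.42, adjusted p = 0.0434). The smallest adjusted p among these 6 was 0.0809, for SNHG8 in VCaP, and SNHG8 passed there with DESeq2 (adjusted p = 0.0419), with library size alone (adjusted p = 0.0352), with all genes kept in the fit (adjusted p = 0.00637) and without NSI replicate 1 (adjusted p = 0.0468) or siFOXA1 replicate 3 (adjusted p = 0.0212). With the replicate block SNHG8 also passed in VCaP (adjusted p = 0.00164). Apart from SNHG4, SNHG15 and SNHG16, the differences between the lines ran from -0.39 to 0.29 over 14 hosts with a smallest adjusted p of 0.182, which does not show that those hosts changed alike. Over the 19 alternatives these differences were called 3 times, for SNHG3 with the replicate block and without siFOXA1 replicate 1 of PC3, and for SNHG11 without NSI replicate 2 of PC3. In each alternative 6.35% to 13.8% of all genes were called more negative and 6.26% to 15.2% more positive.

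**Figure D1:**
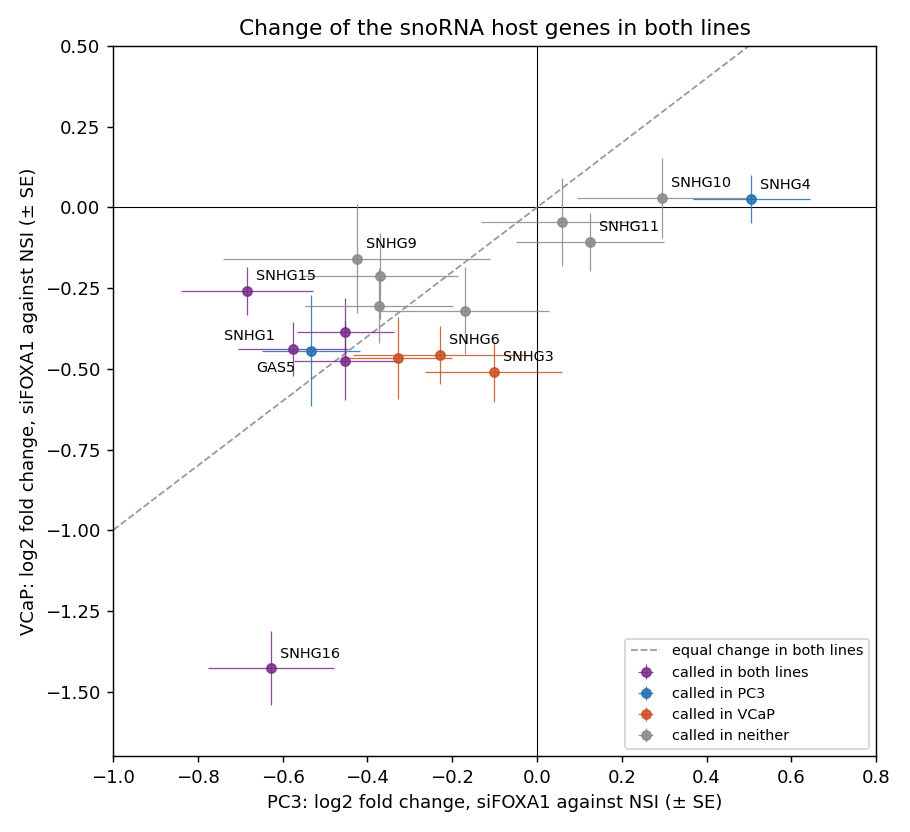
Log2 fold change of each snoRNA host gene after siFOXA1 in PC3 (horizontal) and VCaP (vertical), with bars of 1 standard error and a dashed line where both lines change equally. Colours give the line in which a host was called. In both lines 13 of the 17 hosts lie below 0, SNHG16 lies far below the dashed line at -0.63 and -1.43, and SNHG4 lies to the right at 0.51 and 0.02.

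The snoRNAs inside these hosts can be set beside them in VCaP, where total RNA was sequenced. Fragments over a snoRNA gene can be mature RNA or unspliced host intron, and these were not told apart. The PC3 libraries were made from polyA RNA, and mature snoRNAs carry no polyA tail. The deposited annotation places 84 snoRNA genes within the 17 hosts, 72 of them in SNHG14, and none in SNHG1, SNHG5, SNHG6, SNHG7, SNHG8, SNHG9 and SNHG15, which are known hosts, so this map is partial. The 4 snoRNAs below are printed because their counts are compared with those of their host. Sequences are the GRCh37 reference on the gene's strand, and capitals mark the ACA box near the 3′ end of H/ACA-type RNAs, or the C box and D box.
SNORA73B, in SNHG3 (chr1:28835071-28835274, plus strand): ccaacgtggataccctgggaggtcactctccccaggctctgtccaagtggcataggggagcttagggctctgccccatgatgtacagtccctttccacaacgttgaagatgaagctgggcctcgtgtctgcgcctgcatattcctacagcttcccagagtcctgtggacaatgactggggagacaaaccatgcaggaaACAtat
SCARNA13, in SNHG10 (chr14:95999692-95999966, minus strand): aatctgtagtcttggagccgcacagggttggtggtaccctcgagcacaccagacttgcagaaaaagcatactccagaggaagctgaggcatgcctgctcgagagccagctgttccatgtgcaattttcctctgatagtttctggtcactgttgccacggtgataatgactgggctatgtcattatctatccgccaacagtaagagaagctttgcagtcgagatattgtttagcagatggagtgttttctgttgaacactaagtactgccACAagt
SNORA13, in EPB41L4A-AS1 (chr5:111497182-111497314, plus strand): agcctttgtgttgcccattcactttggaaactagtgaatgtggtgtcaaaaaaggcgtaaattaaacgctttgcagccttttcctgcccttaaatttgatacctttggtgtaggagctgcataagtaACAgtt
SNORD12C, in ZFAS1 (chr20:47895477-47895565, plus strand): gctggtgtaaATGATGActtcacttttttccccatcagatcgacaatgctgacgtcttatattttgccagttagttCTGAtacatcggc

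Of the 84 snoRNAs, 37 could be tested in VCaP. Of these, 4 were called higher (SCARNA13, SNORA60, SNORD108 and SNORD116-24) and 1 lower (SNORD12C), with a median log2 fold change of 0.08. Over all genes tested in VCaP, 22.5% were called higher and 23.3% lower. In PC3, 12 could be tested and 1 was called, SNORD108, higher, against 15.0% of all genes. SNORD108 held only 5 to 15 counts per NSI library and 21 to 30 per siFOXA1 library there. It met the filter on low counts through the siFOXA1 libraries, so this call is not read as support for a rise. The SNORA60 call of VCaP held in 6 of its 14 alternatives. Apart from SNORA13, SNORA73B, SNORD12B and SNORD78, the hosted RNAs named here were chosen after their values were seen. Fragments of the many near-identical SNORD115 and SNORD116 copies were divided among copies, so values of single copies are uncertain.

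SNORA73B, a U17 RNA that acts in the processing of ribosomal RNA, measured 1315, 1307 and 1929 CPM with NSI and 1832, 1484 and 1889 CPM with siFOXA1 in VCaP. The groups overlapped, with a log2 fold change of 0.19 ± 0.16 (adjusted p = 0.353), while its host SNHG3 was lower. It passed without NSI replicate 3 (adjusted p = 0.0197). The ratio of SNORA73B to SNHG3 counts was 23.5, 22.8 and 26.9 in NSI and 43.9, 33.5 and 43.2 in siFOXA1, higher in 3 of 3 libraries by 0.71 on the log2 scale. The exact two-sided permutation p was 0.1, the smallest possible, and 0.117 after adjustment over 21 snoRNA and host pairs.

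SNORA74A measured 292, 287 and 391 CPM with NSI and 340, 380 and 540 CPM with siFOXA1 in VCaP, overlapping groups with a log2 fold change of 0.38 ± 0.18 (adjusted p = 0.112). SNORA74A passed with no filter (adjusted p = 0.00966), with the replicate block (adjusted p = 0.00191), without NSI replicate 3 (adjusted p = 0.0383) and without siFOXA1 replicate 1 (adjusted p = 0.0481). SCARNA13, a guide RNA of Cajal bodies, measured 34.6, 31.4 and 40.6 CPM with NSI and 41.1, 43.9 and 54.9 CPM with siFOXA1, with the groups apart and a log2 fold change of 0.39 ± 0.12 (adjusted p = 0.0251). That call was lost without NSI replicate 1, NSI replicate 2 or siFOXA1 replicate 3 and in the fit over all 12 libraries, with adjusted p up to 0.169. Their hosts SNHG4 and SNHG10 had fold changes near 0 in VCaP.

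SNORA13 measured 8.82, 8.21 and 11.3 CPM with NSI and 6.93, 6.74 and 9.03 CPM with siFOXA1 in VCaP, and its ratio to EPB41L4A-AS1 was 0.517, 0.427 and 0.520 in NSI and 0.479, 0.471 and 0.496 in siFOXA1. This was 1 pair in which the snoRNA and its host had nearly the same estimate, -0.32 and -0.30. SNORA13 passed with no filter, with the replicate block and without siFOXA1 replicate 3 (adjusted p = 0.041, 0.00917 and 0.0258). SNORD12C measured 1.31, 1.63 and 1.79 CPM with NSI and 0.893, 0.974 and 1.09 CPM with siFOXA1, with the groups apart, and was called lower (-0.68 ± 0.17, adjusted p = 0.00992). These values rest on 68 to 103 counts per NSI library and 45 to 57 per siFOXA1 library. The call was lost in the fit over all 12 libraries (adjusted p = 0.0665). Its neighbours in ZFAS1, SNORD12B and SNORD12, had -0.31 ± 0.13 and -0.17 ± 0.16 and did not pass. SNORD78, in GAS5, stayed near 1 CPM in all 6 libraries, with a log2 fold change of -0.03 ± 0.16. It held 61 to 66 counts per NSI library and 52 to 66 per siFOXA1 library.

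**Figure D2:**
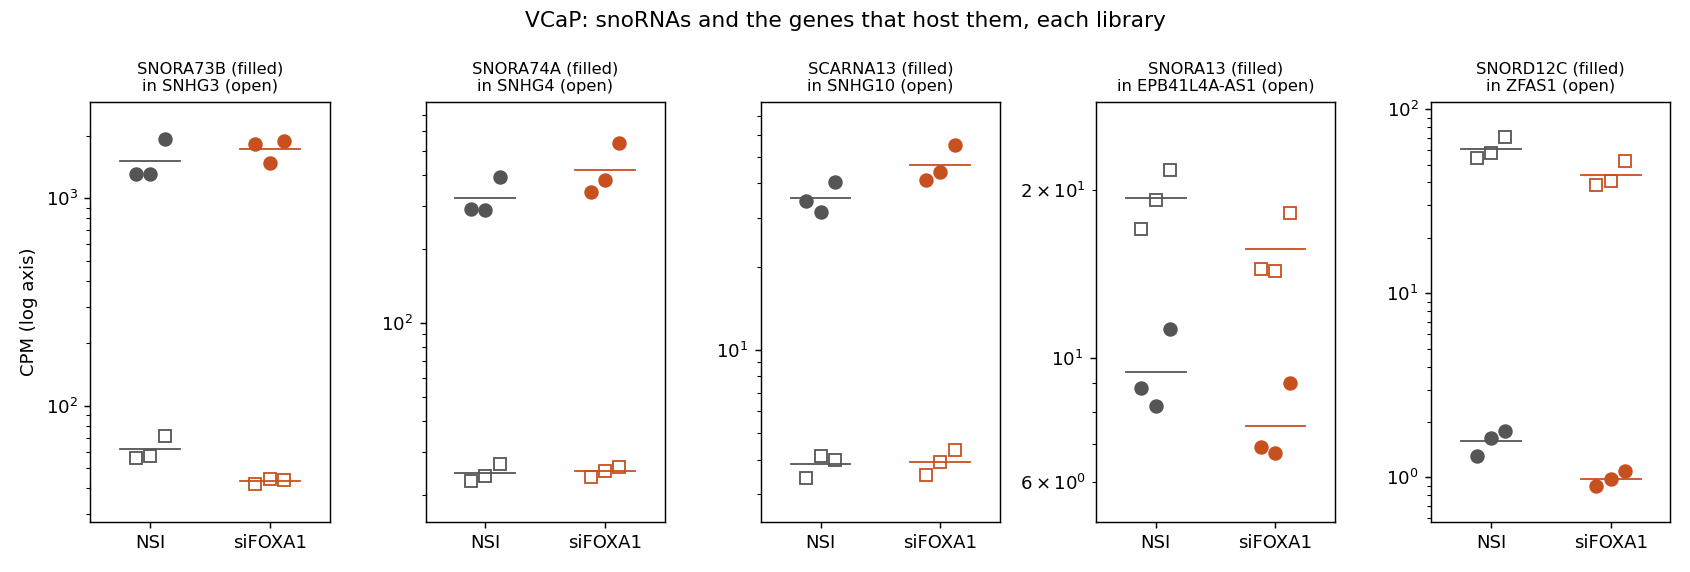
CPM on a log axis of 5 snoRNAs (filled circles) and the genes that host them (open squares) in the 6 VCaP libraries, with lines at the means of 3. SNORA73B stays between 1307 and 1929 CPM while SNHG3 drops below its NSI range, and SNORD12C drops together with ZFAS1.

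The protein-coding genes that also carry snoRNAs in their introns gave larger shares of calls than the non-coding hosts. Most of those listed are ribosomal protein genes, beside translation factor and other genes. Of these 48 protein-coding hosts, 26 (54.2%) were called lower and 1 higher in PC3, and 35 (72.9%) lower and 0 higher in VCaP, with median log2 fold changes of -0.39 and -0.45. All genes tested gave 12.1% lower and 15.0% higher in PC3, and 23.3% and 22.5% in VCaP. In VCaP the ribosomal protein genes were called lower more often than the rest of the list, and in PC3 they were not. The part of hosting a snoRNA in these shares was not tested. Among the 48, the smallest adjusted p in PC3 belonged to DKC1 (-0.60), RPL5 (-0.83) and RPL4 (-0.62), and in VCaP to SF3B3 (-0.60), EIF4A1 (-0.49) and TCP1 (-0.48). DKC1 and NOP56 are in this list and also in the lists of core particle genes, so the lists are not separate. The 1 called higher was EIF4A2 in PC3 (0.35 ± 0.08, adjusted p = 0.0151), a call lost without NSI replicate 1 or 3 or siFOXA1 replicate 1 or 2 (adjusted p up to 0.0733). RPL5 measured 816, 1066 and 851 CPM with NSI and 475, 562 and 502 CPM with siFOXA1 in PC3. The PC3 count was 11 without siFOXA1 replicate 1, against 5.63% of all genes, and 43 with the replicate block, against 21.0%. Fragments of ribosomal protein genes can be shared with processed pseudogenes, so their values are uncertain.

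Transcripts of the core genes of the box C/D particle were called lower for 4 of 4 in PC3 and 3 of 4 in VCaP, against 12.1% and 23.3% of all genes. In PC3 these were FBL (the methyltransferase fibrillarin, -0.71 ± 0.15), NOP56 (-0.59), NOP58 (-0.43) and SNU13 (-0.40). In VCaP they were SNU13 (-0.72 ± 0.07), FBL (-0.50) and NOP56 (-0.42), while NOP58 was at -0.03 (adjusted p = 0.722) and differed between the lines by 0.42 (adjusted p = 0.00994). The PC3 count was 2 without siFOXA1 replicate 1, against 5.63% of all genes. Of the 4 core genes of the H/ACA particle, DKC1 (the pseudouridine synthase dyskerin, -0.60 ± 0.07) and GAR1 (-0.41) were called lower in PC3 and NHP2 (-0.26 ± 0.08) in VCaP, the last lost without siFOXA1 replicate 1 or 2 and in the fit over all 12 libraries (adjusted p = 0.0649, 0.0816 and 0.265). The GAR1 call of PC3 was lost without siFOXA1 replicate 1 (adjusted p = 0.0783). DKC1 differed between the lines by 0.49 (adjusted p = 0.016).

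Among 12 assembly factors 5 were called lower in PC3, led by NOLC1 (-0.54), SHQ1 (-0.60) and RUVBL1 (-0.28), and 6 in VCaP, led by RUVBL1 (-0.44), RUVBL2 (-0.38) and PIH1D1 (-0.37), with 0 higher in either line. Over all genes, 12.1% were called lower in PC3 and 23.3% in VCaP. SHQ1, the chaperone of dyskerin, was at 0.10 in VCaP and differed by 0.71 (adjusted p = 0.00243). The PC3 count was 2 with library size alone, without NSI replicate 3 and without siFOXA1 replicate 1, against 9.65%, 7.03% and 5.63% of all genes. The VCaP count was 3 without siFOXA1 replicate 2, against 18.7%.

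Genes of RNA decay and trimming were called in both directions, beside 15.0% of all genes higher and 12.1% lower in PC3 and 22.5% and 23.3% in VCaP. XRN1, the cytoplasmic exonuclease that degrades decapped RNA, rose in PC3 from 35.5, 22.9 and 33.4 CPM to 95.6, 72.0 and 97.3 CPM (1.53 ± 0.18, adjusted p = 0.000608) and was lower in VCaP (-0.24 ± 0.06, adjusted p = 0.0073), a difference of -1.74 (adjusted p = 2.77e-05). The VCaP call was lost in the fit over all 12 libraries (adjusted p = 0.362). It was the 1 gene of 10 called higher in the debranching and trimming list in PC3, where EXOSC3 (-0.52) and SKIV2L2 (-0.39) were lower. Without siFOXA1 replicate 1 neither of these was called lower. Of 10 nonsense-mediated decay factors, SMG6 was higher in PC3 (0.37, lost without NSI replicate 1 or 3 or siFOXA1 replicate 1 or 3), and in VCaP UPF2 (0.46), SMG1 (0.37, lost in the fit over all 12 libraries) and UPF3A (0.37) were higher and SMG9 (-0.52) was among the lower.

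Of 7 regulators of TOP mRNA translation, 2 were called lower in each line, 28.6%, against 12.1% of all genes in PC3 and 23.3% in VCaP. EIF4EBP2, an inhibitor of the cap-binding factor eIF4E, measured 138, 116 and 132 CPM with NSI and 89.5, 71.3 and 84.0 CPM with siFOXA1 in PC3 (-0.66 ± 0.11, adjusted p = 0.00349). EIF4EBP2 in VCaP stood at 138, 140 and 145 CPM with NSI and at 65.7, 61.2 and 62.3 CPM with siFOXA1 (-1.16 ± 0.06, adjusted p = 8.41e-07). The other gene called was EIF4E in PC3 (-0.40) and MTOR in VCaP (-0.26), the last lost without siFOXA1 replicate 1 or 2 and in the fit over all 12 libraries (adjusted p = 0.0728, 0.103 and 0.183). The PC3 count was 1 without NSI replicate 3 or siFOXA1 replicate 1, against 7.03% and 5.63% of all genes.

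**Figure D3:**
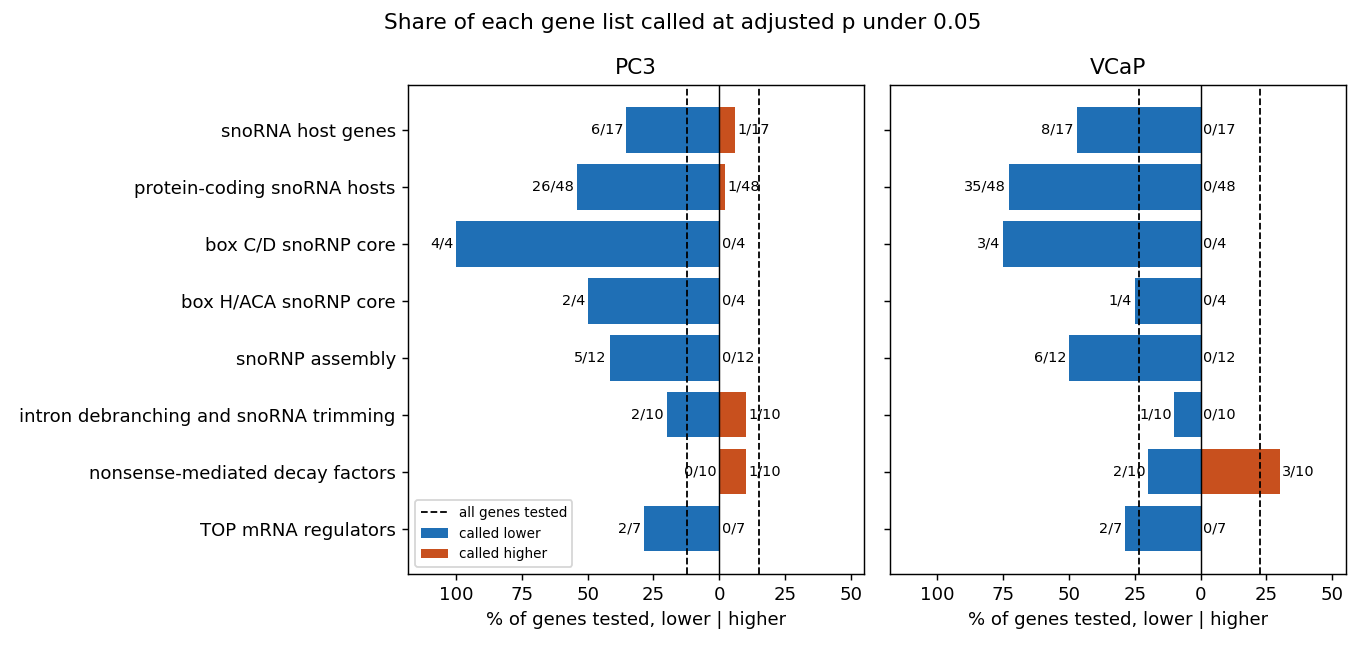
Percent of the tested genes of each list called lower (blue, to the left) or higher (orange, to the right) after siFOXA1 in PC3 and VCaP, with counts beside the bars. Dashed lines give the shares over all genes tested, 12.1% lower and 15.0% higher in PC3 and 23.3% and 22.5% in VCaP. The non-coding hosts (6 and 8 of 17 lower) lie past the dashed line for lower genes, and the protein-coding hosts (26 and 35 of 48) farther. Most of the protein-coding hosts are ribosomal protein genes, and DKC1 and NOP56 are counted there and in a core list.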

How the data were processed

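The authors deposited 1 table of counts per gene and library. These are estimated counts, which the authors made, per the file headers, with featureCounts over exons of GENCODE v28lift37 on GRCh37. Fragments with several target genes were counted in fractions for each, and strand was ignored in PC3 and read as reverse in VCaP. The submitters' processing notes name STAR 2.7.3a and Subread 2.0.0.

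Counts were rounded to whole numbers, since 54.8% to 75.2% of nonzero values were not whole. Each line was fitted on its 6 libraries with edgeR 4.0.16 (R 4.3.3), TMM factors, filterByExpr and the two-sided quasi-likelihood test, with Benjamini-Hochberg adjustment over all genes tested and a call at an adjusted p under 0.05. The difference between lines was the interaction over 12 libraries. The standard error is the log2 fold change divided by the square root of F. DESeq2 1.42.0, other scalings, no filter, unrounded counts, a replicate block, a fit over all 12 libraries and leaving out each library were the alternatives. Replicate numbers come from the sample titles. The tables' column names carry other numbers for some libraries, which give the same pairs. In PC3 the deviations of same-numbered libraries correlated at 0.410, 0.571 and 0.209, so the numbers were taken to pair them. The main PC3 fit and the main interaction left this pairing out, and only the replicate block used it.

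The hosts and gene lists were chosen with earlier results of these data known. Values in every library are given for GAS5, ZFAS1, EPB41L4A-AS1, hosts called in both lines or in the difference, and, per line, the 4 hosts of smallest adjusted p. From the other lists at most 3 called genes per direction and line are named, by smallest adjusted p, beside those said to be chosen later. A few items are not reported here.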

Additional observations from a re-analysis of the deposited data

Results flagged for a closer look

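SNHG16 changed by different amounts in the 2 lines. The difference, VCaP minus PC3, was -0.784 on the log2 scale (edgeR interaction adjusted p = 0.00873), from -0.63 in PC3 and -1.43 in VCaP, with all 3 siFOXA1 libraries below all 3 NSI libraries in each line. FOXA1 itself fell further in VCaP than in PC3, and dose, kit and strand setting differed between the lines, so these cannot be told apart.

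Genes that carry an SNHG name in a later annotation, and another name in these tables, were looked up by gene ID after the files had been read. LRRC75A-AS1, now SNHG29, differed in the same direction as SNHG16, by -1.19 (adjusted p = 9.37e-05). LRRC75A-AS1 measured 253, 297 and 270 CPM with NSI and 182, 210 and 198 CPM with siFOXA1 in PC3. The VCaP values were 635, 639 and 846 CPM with NSI and 209, 211 and 242 CPM with siFOXA1. RP4-564F22.2, now SNHG17, differed in the opposite direction, by 0.908, with a log2 fold change of -0.92 in PC3 and -0.03 in VCaP. Both differences were called in all 19 alternatives.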

How the results depend on the processing

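With 1 library left out at a time, the hosts called lower in PC3 ranged from 0 (without siFOXA1 replicate 1) to 9 (without siFOXA1 replicate 2), and those called higher from 0 to 1, with 0 when NSI replicate 1 or siFOXA1 replicate 2 or 3 was the one left out. In VCaP 6 to 11 hosts were called lower over all alternatives, against 12.7% to 24.8% of all genes. The median log2 fold change of the hosts stayed between -0.48 and -0.21 in PC3 and between -0.43 and -0.22 in VCaP. Over all genes, 3194 were called lower in PC3, but 1520 without siFOXA1 replicate 1, 1909 without NSI replicate 3 and 5563 with the replicate block, and 3955 were called higher, but 2425 without siFOXA1 replicate 1.

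Of the differences between lines, 2 hosts were called more negative in VCaP with DESeq2 size factors, with library size alone and with DESeq2, SNHG4 being the further one. Over all genes 11.7%, 12.8% and 12.7% were. The replicate block called 3 more negative and 1 more positive, against 13.8% and 15.2% of all genes. With 1 library left out the negative calls ranged from 1 to 3 of the 17 hosts and the positive from 0 to 1. Over all genes 8.36% to 13.5% were called more negative and 8.34% to 11.4% more positive in those fits. In VCaP the deviations of same-numbered libraries correlated at 0.0922, 0.0363 and 0.350, and those libraries were taken to share only a number. The value of replicate 3 is above the 0.209 of replicate 3 in PC3, so whether VCaP libraries are paired is uncertain. The replicate block called 11 hosts lower in VCaP, against 24.8% of all genes. GAS5, SNHG8 and EPB41L4A-AS1 were among them (adjusted p = 0.000291, 0.00164 and 0.00576).

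Values near 0 changed sign. With 1 library left out, PC3 values ranged from -0.27 to 0.050 for SNHG3, from -0.16 to 0.22 for SNHG12 and from -0.031 to 0.33 for SNHG11. In VCaP they ranged from -0.18 to 0.043 for SNHG12, from -0.0395 to 0.087 for SNHG4, from -0.062 to 0.095 for SNHG10 and from -0.13 to 0.048 for SNORD78. SNHG12 in VCaP was 0.0023 with upper-quartile factors, and SNORD78 was 0.017 there and 0.00045 in the fit over all 12 libraries. The cause of these changes was not tested. The alternatives for the other gene lists, the later-named genes and the hosted snoRNAs were chosen after seeing the data.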

Other observations

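The 14 genes that later received SNHG names were not chosen by the rule of the report and can be read beside it. In PC3, 4 of the 12 tested were called lower and 1 higher, and in VCaP 4 of 11 were called lower and 0 higher, with median log2 fold changes of 0.12 and -0.14. Over all genes tested, 12.1% were called lower and 15.0% higher in PC3, and 23.3% and 22.5% in VCaP. C6orf48, now SNHG32, measured 107, 107 and 131 CPM with NSI and 68.8, 67.6 and 83.3 CPM with siFOXA1 in VCaP, with the groups apart (-0.65 ± 0.11, adjusted p = 0.000851), and did not pass in PC3 (-0.24 ± 0.15). RP11-190A12.4, now SNHG28, was the 1 called higher, in PC3, at 0.748, 1.33 and 1.04 CPM with NSI and 2.62, 2.63 and 2.47 CPM with siFOXA1 (1.31 ± 0.20, adjusted p = 0.00236).

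The ratio of snoRNA to host counts in VCaP was computed for 21 pairs with at least 100 counts in every library, most of them snoRNAs of SNHG14, which share 1 host and, for SNORD116, near-identical copies. SNORD108 measured 3.72, 3.55 and 2.83 CPM with NSI and 4.23, 4.26 and 4.30 CPM with siFOXA1, while its host was lower, and its ratio to SNHG14 moved by 0.73 on the log2 scale (exact permutation p = 0.1, adjusted p = 0.117 over 21 pairs). SNORD108 was called in 3 of its 14 alternatives.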
